A study of Mus musculus with 16 samples.

Results

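Kainic acid is an agonist of ionotropic glutamate receptors that drives hippocampal circuits into seizure, and the comparison described here asks which transcripts had changed in the hippocampus 1 h after the seizure began, with most attention to those that fell. Arrays were taken by their titles, which spell the drug "kinate", and 3 kainic acid arrays and 3 vehicle arrays make up 6 of the 16 arrays of the series. All mice were wildtype C57BL/6 males aged 3 months, and hippocampal RNA was hybridized to Affymetrix mouse exon arrays. Per the study's text each array held the RNA of 1 hippocampus and the arrays of a group were replicate animals, so the spread is that between mice. Kainic acid was injected intraperitoneally at 20 mg/kg, and control mice received vehicle and were killed at the matched time. The treatment label of the vehicle samples is PBS while the treatment protocol names DMSO with PBS for vehicle, so its solvent is not certain. Beside this pair, 4 arrays of untreated mice, 3 of mice given the MEK inhibitor SL327 at 50 mg/kg and 3 of mice given SL327 1 h before kainic acid entered the same fit and are used only to place the values. The array measures RNA of whole tissue, so a lower value from fewer cells of a type and one from less RNA per cell cannot be told apart.

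Seizure activity opens calcium channels and activates kinase cascades that act on transcription factors already present in the nucleus, among them CREB and SRF. Their immediate early target genes are transcribed within minutes and without new protein synthesis. MEK, which SL327 inhibits, activates the kinase ERK in one of these cascades.

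The values are log2 intensities of probe sets, so a difference of 1 is a doubling of intensity. A probe set was tested where it had a gene name and exceeded the median of the array on 3 or more arrays, which left 8520 probe sets, of which 8199 belong to 1 gene. In each change, the vehicle mean was subtracted from the kainic acid mean, and called means an adjusted p under 0.05 from limma. In counts of genes, each of 7565 genes is represented by its probe set with the highest mean over all arrays. Markers of the tissue were measured, with a vehicle mean of 10.84 for Prox1 of dentate granule cells, 8.22 for Wfs1 of CA1 and 8.04 for Pcp4 of CA2. The median over all tested probe sets was 8.09, so of these only Prox1 stood well above it. The whole array shifted slightly with treatment. The median of all 20372 deposited probe sets was 7.35 to 7.36 in the vehicle arrays and 7.32 to 7.34 in the kainic acid arrays, without overlap, and 7.36 to 7.38 in untreated mice. Over the tested probe sets the median change was -0.05, and in the 3 kainic acid arrays it was -0.02, -0.05 and -0.06 relative to the vehicle mean. The totals, the 30 largest falls and the Zfp genes are therefore counted again after every array was centred on its own median. Counts of the other lists are given without centring, after which fewer falls passed in many of them. Lower genes then numbered 0 in place of 3 for potassium channels, 5 in place of 10 for splicing factors and 12 in place of 14 for chromatin remodellers.

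After kainic acid 1042 probe sets were lower (12.2% of those tested) and 631 were higher (7.41%). The falls were more numerous and smaller than the rises. Their median was -0.26, from -0.11 to -1.33, against a median rise of 0.39 and a largest rise of 4.95. Only 81 of the falls reached 0.5 and 5 reached 1, while 244 rises reached 0.5 and 76 reached 1. The 3 kainic acid arrays lay below all 3 vehicle arrays in 1021 of the falls (27.2% of all tested probe sets did so) and above them in 629 of the rises (13.5% of all tested). Centring left 805 lower and 744 higher, against 1042 and 631. All 631 rises passed again, 805 of the 1042 falls did, and of the 81 falls of at least 0.5 all but 3 did, as 78 passed. By gene, 922 were lower (12.2%) and 569 higher (7.52%), and after centring 711 (9.4%) and 674 (8.91%). Falls and rises began from similar vehicle levels, with medians of 8.11 and 7.99 against 8.09 for all tested probe sets. The count of falls varied with the array left out. It was 606 with vehicle replicate 1 left out, 561 with vehicle replicate 2, 527 with kainic acid replicate 2 and 611 with kainic acid replicate 3 left out. Without vehicle replicate 3 it was 846 and without kainic acid replicate 1 it was 1229. With an array of another group left out it lay between 955 and 1404. The rises ranged from 483 to 734 over all such fits.

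**Figure D1:**
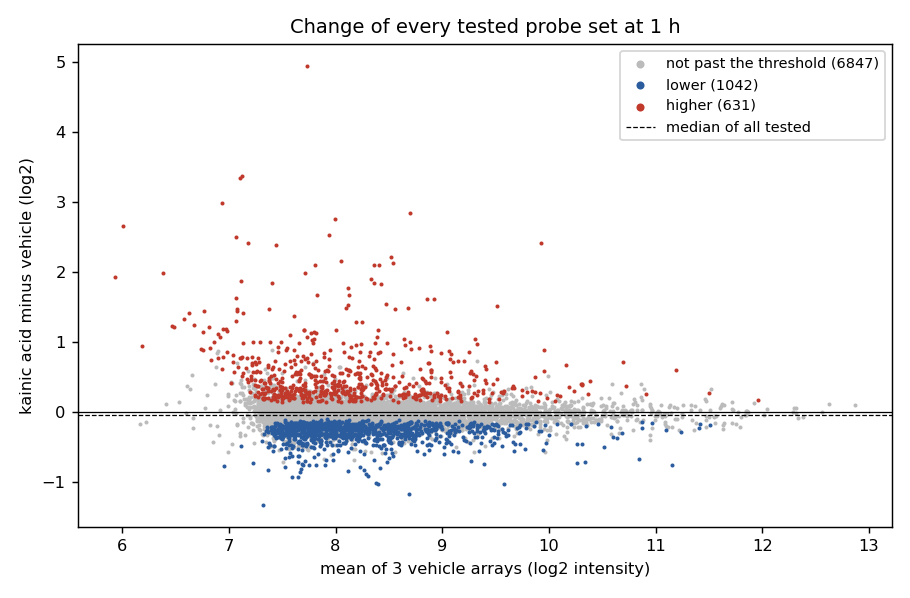
Change of each of the 8520 tested probe sets (kainic acid minus vehicle, log2) against the mean of the 3 vehicle arrays (log2 intensity), with 1042 lower and 631 higher probe sets in colour and the median change of all tested, -0.05, as a dashed line. The falls form a shallow band down to -1.33 and the rises reach 4.95.

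**Figure D2:**
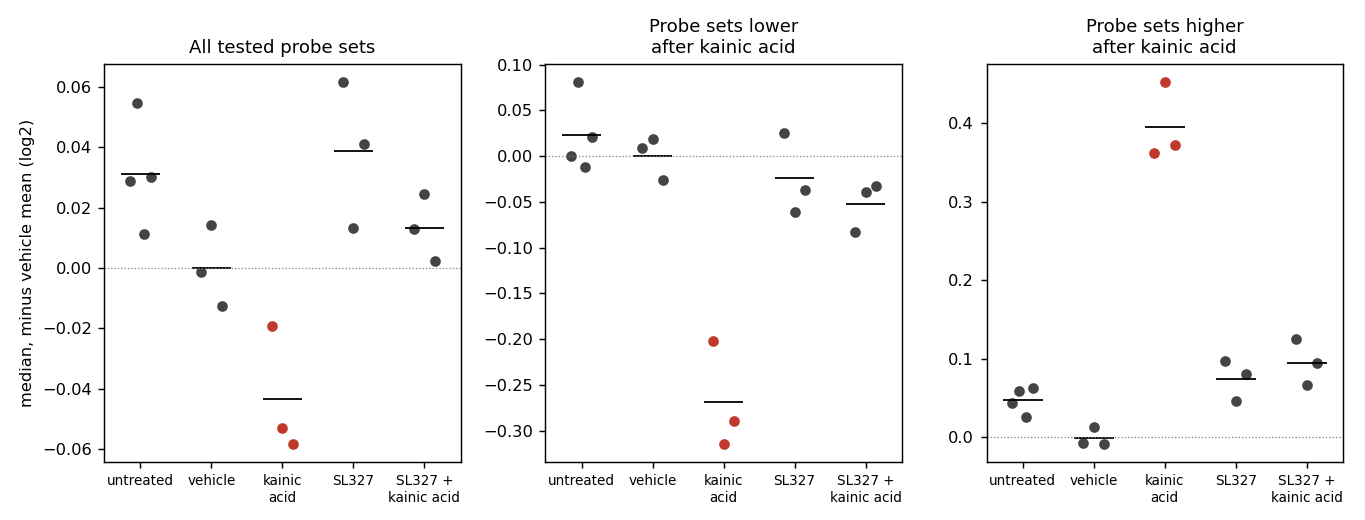
Median over all tested probe sets, over the 1042 falls and over the 631 rises in each of 16 arrays, relative to the vehicle mean (log2); points are arrays, lines are group means, and each panel has its own scale. The falls have medians from -0.31 to -0.20 in the kainic acid arrays and from -0.08 to 0.08 in the 13 others, a description, since the kainic acid and vehicle arrays chose them.

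The 5 probe sets that fell by at least 1 belonged to Lrrc57, Ppil3, Mthfs, C130060C02Rik and Prox2. Lrrc57, a leucine-rich repeat protein gene, had values of 7.32, 7.48 and 7.16 in the vehicle arrays and 6.65, 5.40 and 5.91 after kainic acid (probe set 6890309). It was 2.52-fold lower, a change of -1.33 (SE 0.32, adjusted p = 0.0099), with an adjusted p of 0.055 and a change of -1.04 without kainic acid replicate 2. Its brighter probe set 6890308 changed by -0.33 (adjusted p = 0.0034). The first exceeded the array median on only 5 of the 16 arrays, so the size of its change is less certain. Ppil3, a cyclophilin of the spliceosome, stood at 8.77, 8.78 and 8.52 and then at 8.18, 7.13 and 7.22, lower by 2.27-fold (-1.18, SE 0.21, adjusted p = 0.0018). Probe set 6758943 of Ppil3 changed by -0.23 (adjusted p = 0.024). Kainic acid replicate 1 was the highest of its group for both genes, and the groups did not overlap in either. Mthfs, an enzyme that returns 5-formyltetrahydrofolate to the folate cycle, had values of 9.77, 9.42 and 9.55 against 8.84, 8.21 and 8.57 (-1.04, SE 0.17, adjusted p = 0.00097). The uncharacterized transcript C130060C02Rik also fell by 1.04, from 8.47, 8.38 and 8.34 to 7.40, 7.83 and 6.84 (adjusted p = 0.0033). Prox2, a homeobox gene of the prospero family, had the smallest SE of these 5. Its vehicle values of 8.33, 8.43 and 8.37 and its kainic acid values of 7.35, 7.16 and 7.54 lay far apart beside their spread (SE 0.10). Next came Hpgds, a prostaglandin D synthase (-0.94), the zinc finger gene Zfp668 (-0.93, and -0.29 on its other probe set), Dsp (-0.92) and Spopl, a relative of the ubiquitin ligase adaptor Spop (-0.90, with -0.23 and -0.40 on others that did not pass).

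The remaining genes among the 30 largest falls had changes between -0.86 and -0.71. Spata7, a ciliary gene, fell by 0.86 and probe set 6789087 of Dnah9, an axonemal dynein chain, by 0.76. Probe set 6789091 of Dnah9 was called too (-0.45), but its brightest, 6789090, changed by -0.02 without passing. The remaining Dnah9 probe sets changed by -0.20 and -0.19 without passing. Dgcr8, which with Drosha cuts primary microRNA transcripts, had values of 8.05, 8.58 and 8.17 in the vehicle and 7.47, 7.84 and 7.0 in the kainic acid arrays (-0.83, SE 0.22, adjusted p = 0.018). Vehicle replicate 2 and kainic acid replicate 3 were its extremes, and without either of them its call was lost, with an adjusted p of up to 0.088. Lsr, which encodes a protein of tricellular junctions, was among the most even in its group, at 7.67, 7.69 and 7.65 against 6.94, 6.81 and 6.79 (-0.83, SE 0.08, adjusted p = 7e-06). Probe set 6959624 of the same gene changed by -0.13 (adjusted p = 0.39). The J-domain genes Dnajc24 and Dnajc28 fell by 0.85 and 0.76, and Dnajc24 fell on its second probe set too (-0.66, adjusted p = 0.025). The wider list of heat shock proteins and chaperones had 7 lower and 13 higher of 64 (12.2% and 7.52% of all genes). Mitochondrial and secretory genes in this range were Hadhb, of fatty acid oxidation (-0.77), Guf1, a mitochondrial translation factor (-0.71), and Lman1, a cargo receptor between ER and Golgi (-0.73). The brightest probe set of Lman1, 6866233, changed by -0.20 without passing. The tyrosine kinase gene Jak1 differed between its probe sets. Its values were 8.80, 8.13 and 8.33 against 7.56, 7.94 and 7.33 on probe set 6915826 (-0.81, adjusted p = 0.003), and probe set 6915827 changed by -0.52 (adjusted p = 0.035). Its brightest probe set 6923850, which stands for the gene in the counts, changed by -0.08 (adjusted p = 0.34). The uncharacterized 4632427E13Rik fell on all 3 tested probe sets, by 0.76, 0.80 and 0.42. After centring, 29 of the 30 probe sets passed again, the exception being Fam169a (-0.75, adjusted p = 0.051), whose other 4 tested probe sets changed by between -0.23 and 0.37 without passing. Leaving out 1 array ended the call of 7, and of 0 of the 15 largest rises. Beside Lrrc57 and Dgcr8, these were Guf1 (kainic acid replicate 2), Lman1 (vehicle replicate 2 or kainic acid replicate 2), Spata7 (vehicle replicate 2 or 3, or kainic acid replicate 2) and Dnah9 (vehicle replicate 2 or 3, or kainic acid replicate 3). Fam169a lost its call when any 1 of 8 arrays was left out, with an adjusted p of up to 0.197.

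**Figure D3:**
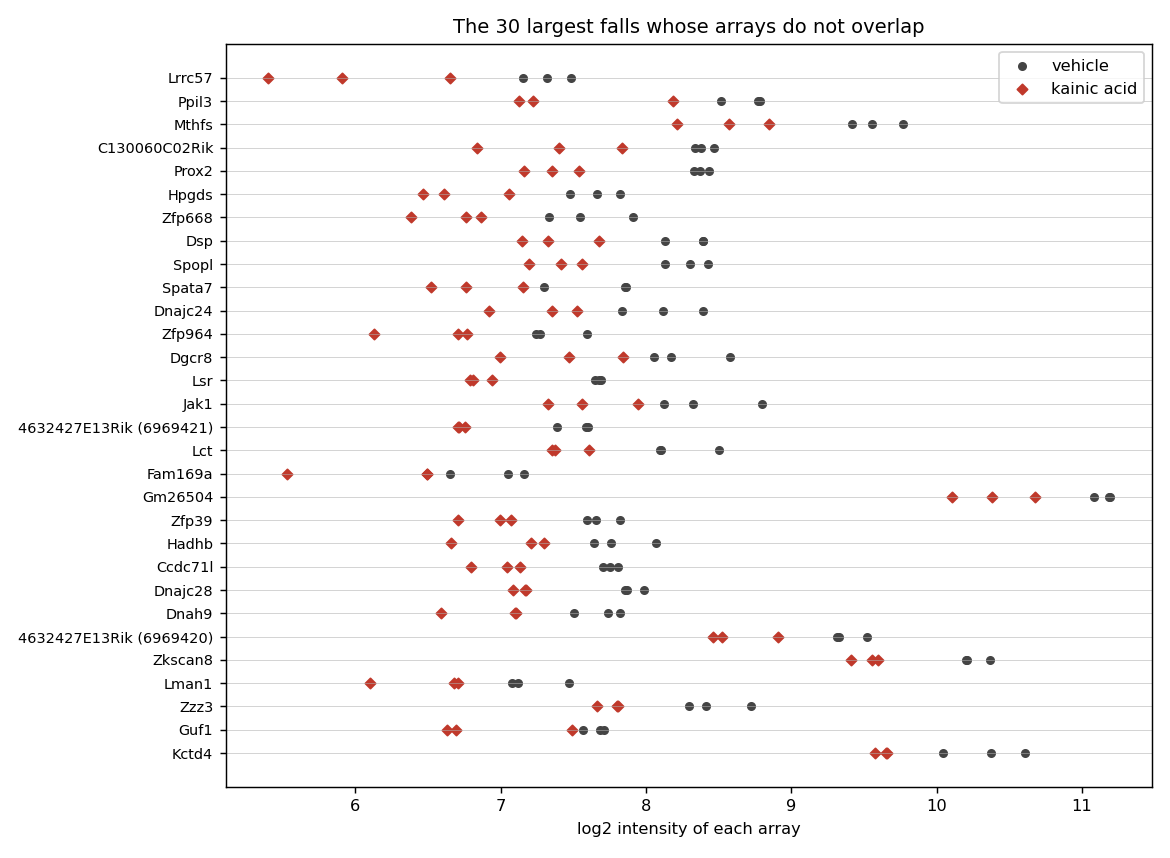
Log2 intensity of the 3 vehicle arrays (circles) and the 3 kainic acid arrays (diamonds) for the 30 largest falls among called single-gene probe sets whose groups do not overlap, ordered by change from Lrrc57 (-1.33) to Kctd4 (-0.71). The choice of these probe sets fixed that the groups lie apart, and the spread within the kainic acid group is widest for Lrrc57 and Ppil3.

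Among the falling genes that have more than 1 tested probe set, most of the others pointed the same way. Of the 922 genes, 75 had another tested probe set, 90 in all. Of those, 80 changed by less than 0, 30 were called lower and 0 were called higher. Over all tested probe sets 62.5% changed by less than 0, 12.2% were called lower and 7.41% were called higher. The probe sets of a gene come from the same RNA, so these counts bear on the probes and not on further arrays.

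By number of genes, zinc finger transcription factors held more falls than any other of the 92 gene lists. By share, 46.2% of 13 subunits of the Integrator complex and 40% of 10 dentate granule cell markers were lower. Genes with Zfp symbols encode mainly C2H2 zinc finger proteins, many with a KRAB domain, which recruits the corepressor Trim28 and the H3K9 methyltransferase Setdb1 to DNA. Of 237 in the table, 139 were measured, and 63 of those were lower (45.3%, against 12.2% of all measured genes) and 8 higher (against 7.52%). The median change was -0.20 over the 139 and -0.04 over all genes, and 113 of the 139 changed by less than 0. Zfp964 had values of 7.27, 7.24 and 7.60 in the vehicle arrays and 6.77, 6.71 and 6.13 after kainic acid (-0.84, SE 0.18, adjusted p = 0.0051). It exceeded the array median on 3 of the 16 arrays, the least that the filter allows, so the size of its change is less certain. Zfp39 stood at 7.66, 7.82 and 7.59 and then at 7.07, 6.70 and 6.99 (-0.77, SE 0.16, adjusted p = 0.0048). The kainic acid arrays lay below the vehicle arrays in both genes. Zfp583 fell by 0.64 (adjusted p = 0.0061) and Zfp831 by 0.60 (adjusted p = 0.011, and 0.056 when vehicle replicate 1 was left out). The 63 falls had a median of -0.37, and the smallest was -0.13.

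The family did not move as one. Zfp948 rose from 8.16, 8.17 and 8.06 to 9.76, 10.04 and 9.58, a change of 1.67 (SE 0.10, adjusted p = 1e-07). Zfp281, a regulator of pluripotency genes, rose by 0.56 (adjusted p = 3.6e-05), Zfp516 by 0.52 and Zfp275 by 0.44. By array, the median of the 139 genes relative to the vehicle mean was -0.15, -0.23 and -0.21 after kainic acid. It was -0.02 to 0.03 in the vehicle arrays and between -0.04 and 0.10 in the 10 arrays of the other groups, so the kainic acid arrays did not overlap any other. For all measured genes the same medians were -0.02, -0.05 and -0.06 after kainic acid. After centring 56 Zfp genes were lower and 9 higher, at a median of -0.17 (9.4% and 8.91% of all genes). Against untreated mice 92 were lower (24.6% of all genes). With any 1 of the 16 arrays left out, between 44 and 72 were lower. Zfp genes share related sequences, and whether probes of one also bind transcripts of another was not tested.

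**Figure D4:**
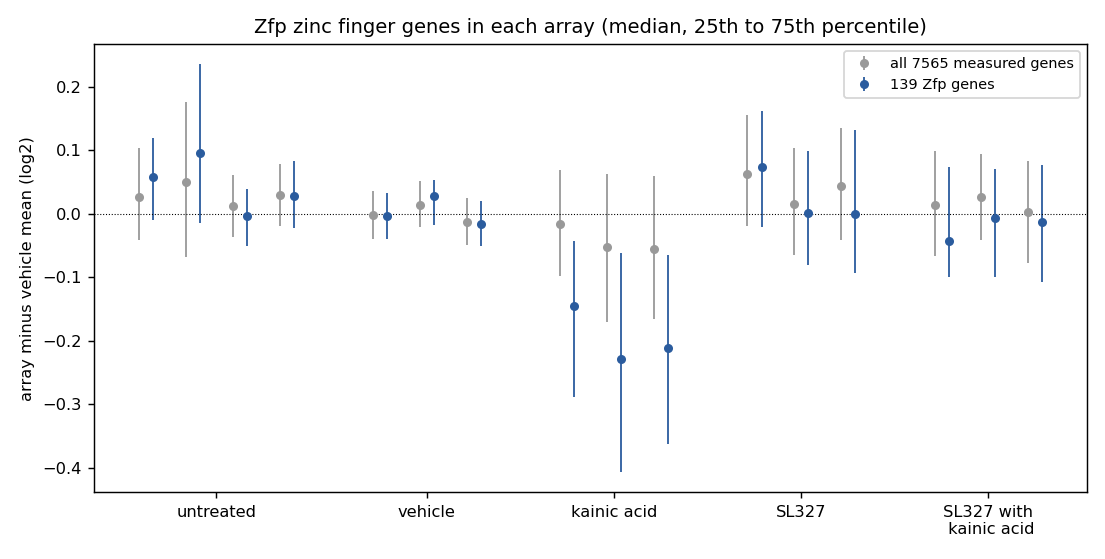
Median and 25th to 75th percentile (log2, relative to the vehicle mean) of 139 Zfp genes and of all 7565 measured genes in each of the 16 arrays. The Zfp medians of the kainic acid arrays are -0.15, -0.23 and -0.21, and the other 13 arrays lie between -0.04 and 0.10.

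Some zinc finger genes of related classes were lower. Over all genes 12.2% were lower and 7.52% higher. Of 26 measured genes of the BTB and SCAN classes (Zbtb, Zkscan and Zscan symbols), 8 were lower (30.8%) and 0 higher, 17 changed by less than 0, and the median was -0.13 (limma, with 12 lower and 1 higher at an unadjusted p under 0.05). Zkscan8 had values of 10.37, 10.20 and 10.21 against 9.59, 9.41 and 9.56 (-0.74, SE 0.14, adjusted p = 0.0025), and its second probe set fell too (-0.59, adjusted p = 0.029). Zbtb44 fell on both probe sets, by 0.69 and 0.37. Zbtb18, a repressor needed for cortical and hippocampal neuron development, went from 9.51, 9.30 and 9.22 to 8.82, 8.68 and 8.83 (-0.57, SE 0.07, adjusted p = 0.00011). Among 30 measured homeobox genes limma called 3 lower and 0 higher (4 and 4 at an unadjusted p under 0.05), namely Prox2, Prox1 (-0.67, and -0.13 on a probe set that did not pass) and Zeb2 (-0.52), and the forkhead gene Foxn2 fell by 0.53. Of 17 nuclear receptors 3 were lower, the thyroid hormone receptor Thra (-0.27), the glucocorticoid receptor Nr3c1 (-0.25) and Nr2c2 (-0.21), and 4 were higher, led by Nr4a3 (2.21). Clock genes split evenly, with Tef (-0.47), Per3 (-0.32) and Arntl2 (-0.28) lower and Per1 (1.61), Cry2 (1.21) and Nfil3 (1.11) higher, of 14 measured. Calls were lost with 1 array left out for Thra (vehicle replicate 2), Nr3c1 (vehicle replicate 3 or kainic acid replicate 2) and Per3 (vehicle replicate 1 or 2, or kainic acid replicate 2 or 3), and for Cry2 with any 1 of 13 arrays (adjusted p up to 0.172).

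Chromatin genes held many small falls and a few large rises. Of 50 measured chromatin remodelling and Polycomb genes 14 were lower and 2 higher (12.2% and 7.52% of all genes), at a median of -0.10. Chd8, a CHD remodeller, had values of 8.52, 8.63 and 8.65 in the vehicle and 8.36, 7.96 and 8.18 in the kainic acid arrays (-0.43, adjusted p = 0.0059), and its second probe set changed by -0.32 (adjusted p = 0.0053). Smarcd2, a SWI/SNF subunit, fell by 0.35, Smarcad1 by 0.34 (call lost without kainic acid replicate 2) and Baz1b by 0.31. The 2 rises were the ARID factors Arid5b (0.67) and Arid5a (0.58). Of 58 histone methyltransferases and demethylases 14 were lower and 6 higher. The falls included the H3K36 methyltransferase Nsd1, at 10.65, 10.65 and 10.62 against 10.30, 10.23 and 10.25 (-0.38, adjusted p = 0.00044), and the H3K9 methyltransferase Setdb1, at 8.44, 8.38 and 8.34 against 8.06, 7.99 and 8.09 (-0.34, adjusted p = 0.00011). These are small changes that lay well outside the spread of either group. The rises were led by Kdm6b, which removes H3K27 methylation, from 7.79, 7.90 and 7.80 to 9.36, 9.79 and 9.35 (1.67, SE 0.11, adjusted p = 1.5e-07). The H3K79 methyltransferase Dot1l (0.76), the demethylase Kdm7a (0.66) and its relative Jmjd1c (0.60) rose too. Among 45 deacetylase, acetyltransferase and DNA methylation genes 8 were lower, including Ep300 (-0.24, call lost when vehicle replicate 2 or 3 or kainic acid replicate 3 was left out), and 3 higher, among them the 5-methylcytosine oxidase Tet2 (0.42).

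Genes of RNA processing and decay moved in both directions. Integrator, a complex that cuts nascent transcripts, was looked up after falls had been noticed in it. Of its 13 measured subunits limma called 6 lower and 0 higher (7 and 0 at an unadjusted p under 0.05), and Ints6 had the largest change, from 7.56, 7.66 and 7.55 to 7.16, 6.96 and 7.09 (-0.52, SE 0.07, adjusted p = 0.00026). The others named by size are Ints13 (-0.34), Ints2 (-0.33) and Ints10 (-0.32). Of 102 genes of RNA helicases, decay and mRNA binding 18 were lower and 8 higher. They include Upf2 (-0.42) and Smg1 (-0.34) of nonsense-mediated decay, the exonuclease Xrn1 (-0.38, call lost when vehicle replicate 2 or kainic acid replicate 2 was left out) and the helicase Dhx33 (-0.45, call lost with vehicle replicate 1 or 2 or kainic acid replicate 2 or 3 left out). The rises among them were led by Btg2 (2.75), a cofactor of deadenylation. Splicing factors and hnRNPs had 10 lower (11.2%, against 12.2% of all genes) and 11 higher (12.4%, against 7.52%) of 89, Celf2 (-0.46) and Rbm5 (-0.39) leading the falls and Hnrnpll (0.68) and Mbnl2 (0.59) the rises. RNA genes annotated as lncRNA in RefSeq had 15 lower (8.47%) and 9 higher (5.08%) of 177.

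Adaptors of ubiquitin ligases and genes of the cilium and centrosome are given beside the same shares of all genes, 12.2% lower and 7.52% higher. Of 121 measured genes of the F-box, Kelch-like, Kctd, BTB and WD repeat families 26 were lower (21.5%) and 6 higher (4.96%), at a median of -0.07. Kctd4 had values of 10.37, 10.61 and 10.05 against 9.65, 9.58 and 9.66 (-0.71, SE 0.15, adjusted p = 0.0039), and its second probe set fell by 0.42. Kbtbd7 (-0.40), the intraflagellar transport gene Wdr19 (-0.39) and Klhl24 (-0.37) followed. In contrast Fbxo33, an F-box gene, rose from 8.46, 8.49 and 8.46 to 9.85, 10.07 and 10.10 (1.54, SE 0.08, adjusted p = 3.7e-08). TRIM, RING and other ligases had 7 lower (7.14%) and 8 higher (8.16%) of 98. Of 101 cilium, centrosome, coiled-coil and motor genes 21 were lower (20.8%) and 4 higher (3.96%), at a median of -0.11, with the centrosomal genes Cep97 (-0.58) and Cep70 (-0.56) ahead of Ttc5 (-0.48). Cep97 lost its call when vehicle replicate 1 or 2 or kainic acid replicate 2 was left out, and Ttc5 in the last of these cases. Of 24 DNA repair genes 5 were lower (20.8%), among them the base excision enzyme Apex1 (-0.45), Rad50 (-0.38) and the nucleotide excision factor Xpa (-0.37), and Rad52 was higher (0.51). GTPase exchange factors and activating proteins had 18 lower (16.2%) and 5 higher (4.5%) of 111, led by Arhgap12 (-0.47).

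**Figure D5:**
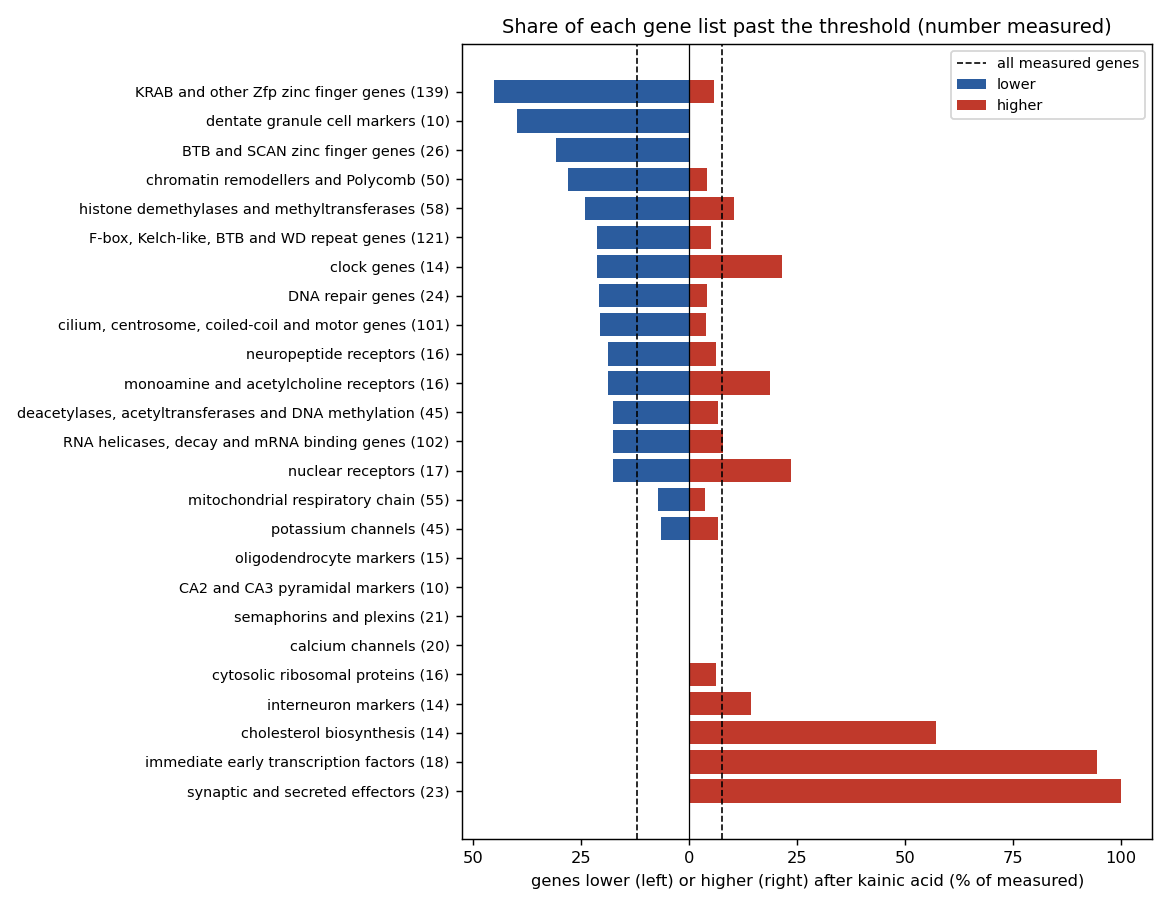
Share of the measured genes of each list (number measured in brackets) called lower, to the left, or higher, to the right, after kainic acid, with dashed lines at 12.2% and 7.52%, the shares over all measured genes. Zfp genes stand at 45.3% lower, and 17 of 18 immediate early transcription factors and 23 of 23 synaptic and secreted effectors are higher.

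Genes of excitability are given beside 12.2% lower and 7.52% higher over all genes. Of 45 measured potassium channel genes 3 were lower and 3 higher (6.67% each), and after centring 0 were lower and 3 higher. Kcnj2, an inward rectifier, went from 7.01, 7.09 and 7.09 to 8.31, 9.12 and 8.67 (1.63, SE 0.24, adjusted p = 0.00031), and Kcnf1, a modulatory subunit, from 8.29, 8.30 and 8.51 to 9.11, 9.40 and 9.54 (0.98, adjusted p = 0.00051), while Kcnj4 rose by 0.22 (call lost when vehicle replicate 1 or 2 or kainic acid replicate 2 or 3 was left out). The falls were Kcnc1 (-0.33), Kcnip2 (-0.27) and Kcnab2 (-0.20), and each of these calls was lost when vehicle replicate 2 or either of kainic acid replicates 2 and 3 was left out. Limma called 0 of 20 calcium channel genes (1 lower and 1 higher at an unadjusted p under 0.05) and 0 of 5 sodium channel genes (2 lower and 0 higher). Of 12 ionotropic glutamate receptor genes only the kainate receptor subunit Grik2 was called, at -0.20 (adjusted p = 0.019, and up to 0.093 with 1 array left out), while the AMPA receptor gene Gria2 changed by -0.17 and the NMDA receptor gene Grin2a by -0.26 without passing. Of 11 GABA and glycine receptor genes 1 was higher, Gabra3 (0.40), whose call was lost without any 1 of 8 arrays.

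Receptors for modulators moved in both directions, and counts of lists are given beside 12.2% lower and 7.52% higher over all genes. Htr1a, the inhibitory serotonin receptor of principal neurons, had values of 8.53, 8.53 and 8.41 in the vehicle and 8.0, 8.09 and 8.16 in the kainic acid arrays (-0.41, SE 0.08, adjusted p = 0.002). Htr1b rose by 0.58 (adjusted p = 0.001) and Htr2a by 0.42. Npy2r, the receptor through which neuropeptide Y limits transmitter release, went from 7.77, 7.95 and 7.44 to 7.40, 7.30 and 6.98 (-0.49, adjusted p = 0.014), and the call was lost without vehicle replicate 1 or 2 or kainic acid replicate 3. The somatostatin receptor gene Sstr2 rose by 0.65 (adjusted p = 0.0028). Among 44 orphan and adhesion receptors 3 were lower (6.82%), led by Gpr75 (-0.44), and 4 higher (9.09%), led by Gpr3 (1.17), which activates adenylyl cyclase without a ligand. The neurotrophin receptor gene Ntrk3 fell on 2 of 3 probe sets, by 0.56 and 0.46, and changed by -0.09 on the third, and the call of the first was lost without kainic acid replicate 2. Of 30 Wnt signalling genes limma called 4 lower (13.3%) and 0 higher (6 and 0 at an unadjusted p under 0.05), with Axin2 (-0.33), Fzd8 (-0.33), Apc (-0.28) and Lrp6 (-0.22). The call of Apc was lost when kainic acid replicate 3 was left out, and that of Fzd8 with any 1 of 10 arrays (adjusted p up to 0.176).

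Counts for further families are set beside 12.2% lower and 7.52% higher over all genes. Limma called 0 of 21 semaphorin and plexin genes, of which 6 were lower and 1 higher at an unadjusted p under 0.05. It called 0 of 21 genes of the Eph, ephrin, Slit, Robo and netrin families, with 2 lower and 0 higher at that level. The mitochondrial respiratory chain had 4 lower and 2 higher of 55, led by the complex I subunit Ndufs3 (-0.52), cytosolic ribosomal proteins 0 lower and 1 higher of 16 (1 and 3 at an unadjusted p under 0.05), and solute carriers 10 lower (6.29%) and 16 higher (10.1%) of 159. Lipid and fatty acid enzymes had 1 lower and 5 higher (7.58%) of 66, and postsynaptic scaffolds 1 of each of 36.

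Cell type markers were set beside the falls, with 12.2% lower and 7.52% higher over all genes. Of 10 measured dentate granule cell markers limma called 4 lower and 0 higher (5 and 0 at an unadjusted p under 0.05), namely Dsp, Lct, Prox1 and the transcription factor Rfx3. Rfx3 went from 8.93, 8.92 and 8.63 to 8.45, 8.11 and 8.13 (-0.60, SE 0.14, adjusted p = 0.01). The others did not pass, with C1ql2 at -0.16 and Calb1 at 0.00. The median of the 10 markers relative to the vehicle mean was -0.48 to -0.18 in the kainic acid arrays, -0.14 to 0.09 in the vehicle arrays and -0.18 to 0.25 in untreated mice. Of 7 CA1, 10 CA2 and CA3, 15 oligodendrocyte and 9 microglia markers limma called 0 in each list, and at an unadjusted p under 0.05 there were 1 lower and 1 higher in CA1, the same in CA2 and CA3, 3 lower in oligodendrocytes and 0 in microglia. Of 11 astrocyte markers S100b was lower (-0.26), 9.09% of that list, of 8 endothelial and pericyte markers Slco1a4 was lower (-0.46), 12.5% of it, and of 14 interneuron markers Gad1 (0.53) and Cnr1 (0.29) were higher. Calls were lost with 1 array left out for S100b (vehicle replicate 2 or 3, or kainic acid replicate 3), Slco1a4 (vehicle replicate 2 or kainic acid replicate 3) and Cnr1 (vehicle replicate 3 or kainic acid replicate 2), and S100b changed by 0.0425 with untreated mice as the control. The median of 5 choroid plexus and ependymal markers lay between -0.31 and 0.19 in the kainic acid and between -0.29 and 0.43 in the vehicle arrays. These markers were not even across the other groups. Against untreated mice their median change was -1.05 after kainic acid and -0.86 after vehicle. It was -0.85 for SL327 with kainic acid minus SL327 alone. The part of cell composition in the falls was not tested.

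Large rises included genes of nuclear transport and signalling. Ranbp2, a nucleoporin and SUMO ligase, had values of 5.94, 6.08 and 6.00 against 8.25, 8.68 and 9.04 (2.65, SE 0.20, adjusted p = 6.3e-07) and rose by 1.48 on a second probe set. The first of these exceeded the array median on the 3 kainic acid arrays alone, so its vehicle values are those of a dim probe set and the size of its change is less certain than that of a brighter one. Ifrd1, a transcriptional coregulator, went from 7.15, 7.02 and 7.02 to 9.28, 9.82 and 9.57 (2.49, SE 0.15, adjusted p = 9.9e-08). Rasl11a, a Ras-like GTPase, went from 8.08, 8.07 and 7.68 to 9.74, 11.02 and 10.67 (2.53, SE 0.28, adjusted p = 2.6e-05). Kainic acid replicate 1 was the lowest of its group in all 3 genes, and the groups lay far apart in each. Other rises by list were the lactate transporter Slc16a1 (1.53), the protocadherin Pcdh8 (1.47), the matrix protease Adamts1 (1.42), the kit ligand Kitl (1.32), the ubiquitin ligase Rnf217 (1.37) and the elongation factor Ell2 (0.79). Of the 631 rises, 86 passed the intensity filter only through the kainic acid arrays, and of the 1042 falls 23 passed it only through the vehicle arrays.

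Promoter sequences were searched for the response element of CREB, and the shares below are descriptions without a test. The sequences come from RefSeq (GRCm38.p6) and were searched on both strands from 250 bases before to 50 after the start for the CRE (TGACGTCA) and its shorter form (TGACG), which the full element also holds. Promoters were found for 745 of the 922 lower and 467 of the 569 higher genes. The 250 bases before the start are shown for 2 rises and 2 falls, chosen for holding or lacking the element, 5′ to 3′ on the strand of the gene, with the full and short CRE in capitals.
Dusp1: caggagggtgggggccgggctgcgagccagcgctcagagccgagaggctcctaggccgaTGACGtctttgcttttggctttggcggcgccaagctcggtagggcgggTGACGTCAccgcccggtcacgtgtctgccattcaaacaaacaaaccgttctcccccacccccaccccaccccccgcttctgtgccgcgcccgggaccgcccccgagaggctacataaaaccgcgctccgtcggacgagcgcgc
Fos: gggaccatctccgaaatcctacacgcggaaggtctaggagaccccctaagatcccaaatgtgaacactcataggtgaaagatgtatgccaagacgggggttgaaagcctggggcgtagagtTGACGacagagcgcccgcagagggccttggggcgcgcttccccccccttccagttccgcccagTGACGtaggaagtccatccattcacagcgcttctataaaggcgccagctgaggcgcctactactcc
Prox2: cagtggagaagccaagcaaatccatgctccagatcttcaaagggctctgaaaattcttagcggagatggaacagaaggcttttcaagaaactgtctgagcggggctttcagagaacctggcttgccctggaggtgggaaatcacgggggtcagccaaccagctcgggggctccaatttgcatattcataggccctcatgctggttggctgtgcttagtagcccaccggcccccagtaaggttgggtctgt
Zfp39: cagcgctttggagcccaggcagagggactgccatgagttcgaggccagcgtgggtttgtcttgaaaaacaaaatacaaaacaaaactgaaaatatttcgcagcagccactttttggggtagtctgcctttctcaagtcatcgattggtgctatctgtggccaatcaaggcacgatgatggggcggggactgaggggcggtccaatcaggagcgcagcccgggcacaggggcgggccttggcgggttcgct
The Dusp1 promoter (chr17:26508473-26508722, minus strand) holds a full CRE and a further short form, and the ERK phosphatase gene rose by 2.84. The Fos promoter (chr12:85473640-85473889, plus strand) holds 2 short forms, and Fos rose by 2.98. Neither Prox2 (chr12:85106432-85106681, minus strand, 1 of its 2 listed starts) nor Zfp39 (chr11:58904226-58904475, minus strand) has such letters in the stretch shown, and they changed by -1.03 and -0.77.

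A full CRE was found in 6.06% of 627 promoters of higher genes, 3.14% of 6311 of genes not called and 1.47% of 953 of lower genes. The short form was found in 44.2%, 31.4% and 25.6% in the same order. Over the 7891 promoters of all measured genes the shares were 3.17% and 31.7%. Over all 32851 promoters of the table, most of them of genes not measured, they were 1.79% and 20.8%. The AP-1 site (TGANTCA) was present in 6.7%, 4.5% and 3.25%, and the CArG box of SRF in 2.87%, 1.22% and 0.63%. The EGR site (GCGTGGGCG) did not follow this order, with 1.75%, 1.13% and 1.36%. The E-box (CACGTG) was more even, with 11%, 9.86% and 9.23%, and so was the median GC content, with 63%, 62% and 61.7%. Over all promoters of the table the median GC content was lower, at 52.7%. Within the Zfp family the short form was in 13 of 66 promoters of lower genes (19.7%) and in 31 of 72 of genes not called (43.1%), and their GC contents were 54.3% and 61.3%. The AP-1 site ran the other way there, in 5 of the 66 (7.58%) and 1 of the 72 (1.39%). A match is not a bound site.

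The arrays of mice given SL327 allow the falls to be looked at in arrays that did not choose them. When SL327 with kainic acid was compared with SL327 alone, limma called 0 probe sets in either direction, with 897 at an unadjusted p under 0.05. Of the 1042 falls, 694 changed by less than 0 in that comparison (66.6%), against 63.3% of all tested probe sets. Their median was -0.03, equal to that of all tested at 2 decimals. Of the 631 rises, 367 changed by more than 0 (58.2%), against 36.7% of all tested, at a median of 0.02. The spread of the SL327 with kainic acid arrays was wide for some rises. Npas4 changed by 2.60 (SD 2.32 in that group) without passing, and Inhba by 0.07 (SD 0.08). The paper limited its later tests to genes that differed between kainic acid and vehicle. It does not name the baseline used for induction in the presence of the inhibitor. Sensitivity to the inhibitor was judged there on unadjusted p values. The paper classed Npas4, Rgs2, Arl4d and Errfi1 as only partly dependent on MEK, and its in situ hybridizations showed their induction partly reduced. The 0 calls here, adjusted over all tested probe sets against SL327 alone, are therefore not a test of those classes. In the difference between the changes with and without SL327, limma called 491 probe sets (5.76%), 163 of the falls and 305 of the rises, and 2 of the 4 groups in that difference had chosen both sets. For Mthfs the change with SL327 present was -0.28, for Lrrc57 -0.40, for Prox2 0.01 and for Zkscan8 -0.18, and none of them passed. The Zfp genes had a median of -0.05 in that comparison and all measured genes one of -0.03.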

How the data were processed

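The series holds 16 exon arrays of hippocampal RNA. The authors normalized the arrays by RMA in the oligo package, versions not given in the sources used here, and the deposited values are log2 intensities, used as they are. Gene names came from the platform annotation supplied with the table, updated through RefSeq gene IDs, and gave 1 gene to 14704 probe sets, several to 713 and none to 4955. Samples were grouped by their labels. The methods' filter (annotated, above the array median in at least 3 arrays) left 8520 probe sets. Their removal of probe sets of other categories was not repeated. No array was identical to another. A linear model of the 5 groups was fitted with limma 3.58.1 in R 4.3.3, and p values of 2-sided tests were adjusted by Benjamini and Hochberg over all tested probe sets. The fit was tested on simulated data. Lists were summarized in Python 3.11.15 with pandas 2.3.3.

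The members and the 92 gene lists were chosen with earlier results of these data known, and the Integrator list and the removal of unrelated genes that symbol patterns took in were decided after values were seen. Named genes are the 30 largest falls and 15 largest rises whose arrays do not overlap, up to 4 per direction and list, and members of cell type, receptor and channel lists. The second probe sets of named genes were looked up afterwards. Alternatives were other filters, centring, quantile normalization, other controls, other estimates of the spread, a replicate block and each array left out in turn. The filter on the other arrays, centring on tested probe sets, and the count of Zfp genes under each setting were added after the data were seen. The number of arrays limits the precision. The labels number the samples but name no shared litter or day.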

Additional observations from a re-analysis of the deposited data

Results flagged for a closer look

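Probe sets without a gene name were left out of the comparison. When the 1862 that pass the same intensity filter were tested with the named ones, 153 of them were lower and 57 higher after kainic acid. Over all 10382 probe sets of that fit 1099 were lower (10.6%) and 649 higher, so the unnamed ones were called at a lower rate. In the main comparison 12.2% were lower and 7.41% higher.

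The change with kainic acid differed between arrays with and without SL327 in 491 probe sets (limma's adjusted p of 0.05 for the difference of the 2 changes), 163 of them among the 1042 falls and 305 among the 631 rises. In all 163 the change was less negative with SL327 present and in all 305 it was smaller, and the falls and rises had been chosen on 2 of the 4 groups in that difference. Among the 30 largest falls, 8 passed, with a change with SL327 minus the change without of 1.31 for Ppil3, 1.04 for Prox2, 0.73 for Spopl, 0.48 for Lsr, 1.18 for 4632427E13Rik (probe set 6969421), 0.91 for Lct, 0.64 for Ccdc71l and 0.94 for Kctd4. Among the 15 largest rises, 10 passed, with -2.22 for Ptgs2, -2.14 for Dusp1, -2.0 for Ranbp2, -1.84 for Rasl11a and -2.03 for Ifrd1. The other 5 were Arc (-1.56), Inhba (-2.34), Nptx2 (-2.28), Nr4a3 (-1.59) and Errfi1 (-1.72).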

How the results depend on the processing

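The count of falls depended on the control, as it was 2116 with untreated mice in place of vehicle and 2058 with both pooled, against 1042. At a change of at least 0.5 it was 81, and that of rises 244 against 631. With each array left out in turn the falls ranged from 527 to 1404, the rises from 483 to 734, the Zfp genes lower from 44 to 72 and the falls below 0 in the SL327 pair from 559 to 758. The median change of all tested probe sets ranged from -0.057 to -0.037 in those fits, was -0.073 with untreated mice, -0.019 after centring and -0.013 after centring on tested probe sets. Zfp genes lower numbered 32 when a value above the median was asked of all 16 arrays, a filter that left 89 of them. The share of called probe sets that were higher was 37.7%, and centring gave 805 lower and 744 higher, quantile normalization 962 and 743. Deviations from the group mean in kainic acid and vehicle arrays of the same replicate number correlated at 0.13, -0.03 and 0.18 for numbers 1 to 3. Between arrays of different numbers the correlations ran from -0.20 to 0.06, and whether the numbers mark pairs was not tested further. With the replicate block the falls numbered 832 in the kainic acid and vehicle arrays and 845 in all arrays, and the rises 606 and 573. S100b changed by 0.0425 with untreated mice as the control. Of 387 named probe sets past the threshold, 153 lost the call with some array left out. The cause of these differences was not tested.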
